A study of Mus musculus with 12 samples.

Results

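The genes described are Larp1, the 4E-BP genes Eif4ebp1 and Eif4ebp2, and 7 genes at the centre of mTOR signalling (Mtor, Rptor, Rictor, Tsc1, Tsc2, Rheb and Rps6kb1). They were chosen by name, with earlier results of these data known, and all 10 were found among the 49585 genes counted in the study. mTOR is a kinase that couples growth factor and amino acid signals to growth, and in CD4 T cells it is switched on by the T cell receptor and CD28. Its complex mTORC1 phosphorylates the 4E-BPs, which otherwise hold the cap-binding protein eIF4E away from the initiation complex, and S6 kinase, and it controls LARP1, which binds the cap and the first bases of mRNAs with a terminal oligopyrimidine (TOP) start, such as those of ribosomal proteins.

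The study asked how CD4 T cells respond to loss of RNMT, the enzyme that methylates the guanosine of the mRNA cap. Control mice were *Rnmt* fl/fl without CD4cre and *Rnmt* cKO mice were *Rnmt* fl/fl with CD4cre, all of them female, so the floxed allele was common to both and Cre and deletion were not separated. The Cd4 promoter drives Cre from the double-positive stage in the thymus, so deletion began before the cells were isolated and not with activation. CD4 T cells were taken from lymph nodes with a kit for naive CD4 cells, activated for 20 h in medium with 50 uM mercaptoethanol on plates coated with anti-CD3 (5 ug/ml) and anti-CD28 (1 ug/ml), and treated with 0.1 mg/ml cycloheximide for 1 min, and total RNA and ribosome protected fragments (RPFs) were each sequenced from 3 control and 3 *Rnmt* cKO samples. Reads counted on genes were 19056917, 18915961 and 19111659 in control total RNA, and 15079703, 18803007 and 22629563 in *Rnmt* cKO total RNA. The RPF libraries were shallower, with 10661356, 6786164 and 8214622 reads in controls and 8349463, 10166729 and 4123271 in *Rnmt* cKO samples. Nothing in the labels says that same-numbered samples of the 2 genotypes belong together, and p-values measure the spread between these samples.

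Rnmt itself, which checks the labels, lay at 95.3, 93.9 and 94.1 CPM (reads scaled to library size, with TMM) in control total RNA and at 29.3, 32.3 and 30.3 CPM in *Rnmt* cKO total RNA. In RPF it fell from 103.8, 87.7 and 98.7 CPM to 10.5, 10.3 and 9.57 CPM. Every *Rnmt* cKO library was below every control in both kinds of RNA, with log2 fold changes of -1.62 and -3.24 (adjusted p = 5.8e-06 and 4.8e-06, edgeR quasi-likelihood). Counts cover the whole gene, so transcripts that lack the floxed exon 3 are still counted. Markers of CD4 T cells (Cd3e, Cd3d, Cd3g, Cd4, Cd247, Cd28, Cd5 and Lat) were detected in all 12 libraries, with a summed level of 3337 ± 166 CPM (SD, n = 3) in control and 2746 ± 261 CPM (SD, n = 3) in *Rnmt* cKO total RNA, where 3 of the 8 fell.

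Markers of other cells moved with genotype as well. The 6 B cell markers summed to 9.81, 6.24 and 34.6 CPM in control total RNA and to 89.8, 113.9 and 20.6 CPM in *Rnmt* cKO replicates 1, 2 and 3. In RPF the sums were 12.8, 8.40 and 42.5 CPM in controls and 142.5, 152.4 and 23.5 CPM in *Rnmt* cKO samples. Replicates 1 and 2 thus stood above all controls, whereas replicate 3 lay inside the control range. In either kind 3 of the 6 rose (edgeR), and the most abundant was Ms4a1 (CD20), with means of 5.90 and 27.7 CPM in total RNA. Results for the members, and counts for the pathway lists, are given below also from *Rnmt* cKO replicate 3 alone, which then has no replicate of its own and is assumed to vary as the controls did. The other lists were smaller or led by genes that T cells can make. The 5 NK markers summed to 3.14 ± 0.358 and 27.3 ± 9.62 CPM (SD, n = 3) in total RNA. Of these, Eomes, a transcription factor that activated T cells also express, made 2.86 and 25.8 CPM and was the 1 marker that passed the filter on low counts, and it rose. The 4 regulatory T cell markers, led by Ikzf2, summed to 16.5 ± 1.18 and 35.3 ± 4.13 CPM (SD, n = 3), and 3 of them rose. The 2 CD8 T cell markers summed to 27.7 ± 11.1 and 19.3 ± 8.20 CPM (SD, n = 3), and the 7 myeloid markers to 0.246 ± 0.162 and 0.866 ± 0.255 CPM (SD, n = 3). The 5 erythroid markers summed to 0.0881 and 0.152 CPM, with Hba-a1 at 0 in all total RNA libraries. *Rnmt* cKO replicate 3, inside the control range for B cell markers, lay outside it for these lists in total RNA. Its NK and regulatory T cell sums were 22.1 and 32.2 CPM, against 2.73 to 3.40 and 15.2 to 17.3 CPM in controls. Its CD8 and CD4 T cell sums were 10.1 and 3034 CPM, against 21.2 to 40.5 and 3156 to 3481 CPM. The part of the CD4, CD8, regulatory T cell and NK markers in the results was not tested. In bulk RNA, fewer cells of a type and less RNA per cell cannot be told apart. CPM values are relative to the RNA sequenced in each library and hold no measure of mRNA per cell, so that rises and falls are relative to the other genes, and the direction per cell can differ. The rises in total RNA of Larp1, Tsc2, Eif4ebp2 and Mtor described below would be cancelled per cell if *Rnmt* cKO cells held 0.458, 0.661, 0.741 and 0.803 times the mRNA of controls, respectively. The mRNA per cell was not analysed here, so the direction per cell is not given for any of the 4, and the rises of Mtor and Eif4ebp2 would be the first to turn to falls.

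The first bases of the mRNAs are shown because LARP1 and the 4E-BPs act at the cap. Each sequence below runs from 10 bases before the RefSeq start of the gene (GRCm38.p6) to its 15th transcribed base, on the strand of the transcript, and capitals mark the first 5 transcribed bases. Larp1 (chr11:58009054-58009078, + strand), Tsc2 (chr17:24632613-24632637, - strand), Eif4ebp2 (chr10:61452655-61452679, - strand) and Mtor (chr4:148448572-148448596, + strand) are the members whose total RNA changed. Rps6 (chr4:86857353-86857377, - strand), the S6 kinase substrate and a ribosomal protein of the pathway lists, is given for contrast.
Larp1: aggcgcgccgGAGCCttctgcccgg
Tsc2: ccccggaagtACGGGttgcgcttcc
Eif4ebp2: cgcagcgggaCGACCgggcgagagc
Mtor: cctccccaccTCCCTggcctagaag
Rps6: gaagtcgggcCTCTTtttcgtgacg

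A TOP-like start, taken as a C followed by 4 bases that are each C or T, was searched on the transcript strand only. None of the 9 members with a RefSeq start had one at its first base, against 2.51% of all 32851 RefSeq starts, 4.07% of the 123 starts of other pathway genes (Rps6, Itfg2, Pik3ca, Pik3cd and Prr5) and 19.4% of 67 starts of ribosomal protein genes. Within 10 bases either side, 3 of the 9 had such a run (Mtor 1 base before the start, Larp1 3 and Tsc2 10 bases after it), where the share was 30.7% of all starts and 53.7% of those of ribosomal protein genes. The Larp1 run begins with the last capitals above, and the run at Mtor holds the first 4 of its capitals. The annotated base is not a measured cap site, and it lay 0 bases from the GENCODE gene start for Larp1 and Rptor, 3 for Tsc2, 8 for Eif4ebp2, 29 for Mtor, 45 for Rps6 and 263 for Rheb. Eif4ebp1 had no entry.

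Larp1 had the largest change of the 10 members in total RNA. It lies on chromosome 11 of GRCm38 (chr11:58009064-58062034, + strand) and no other annotated gene overlaps it. Total RNA of Larp1 was 107.9, 115.5 and 127.1 CPM in controls and 247.2, 313.1 and 205.0 CPM in *Rnmt* cKO samples. The 2 genotypes did not overlap, and the lowest *Rnmt* cKO value was in replicate 3. The mean rose from 116.8 ± 9.64 to 255 ± 54.5 CPM (SD, n = 3), a 2.18-fold change (log2 fold change 1.13, standard error 0.14, adjusted p = 4.2e-04 in edgeR's quasi-likelihood test). From replicate 3 alone, where B cell markers lay within the control range, the log2 fold change of total Larp1 was 0.84 (adjusted p = 6.6e-04 by the same test).

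Ribosome protected fragments of Larp1 rose as well. RPF of Larp1 was 214.6, 221.5 and 250.9 CPM in controls and 305.3, 332.5 and 320.3 CPM in *Rnmt* cKO samples, again without overlap. The log2 fold change was 0.48 (standard error 0.07, adjusted p = 0.0023 in edgeR's quasi-likelihood test), and 0.48 from replicate 3 alone (adjusted p = 0.046). Relative translation efficiency (TE), the log2 CPM of RPF minus that of total RNA in libraries of the same number, was 0.99, 0.94 and 0.98 in controls and 0.30, 0.08 and 0.65 in *Rnmt* cKO samples. All *Rnmt* cKO values were lower and they were spread more widely than the controls. The TE of Larp1 fell by 0.65 on the log2 scale (standard error 0.18, adjusted p = 0.037 for the genotype by library kind interaction in edgeR). That call was lost when any of control replicates 1, 2 or 3 or *Rnmt* cKO replicates 1 or 2 was left out (log2 values from -0.66 to -0.51, adjusted p from 0.059 to 0.12), and from replicate 3 alone the value was -0.35 (adjusted p = 0.35). TE and total RNA share the total RNA libraries, so a high total RNA value lowers TE by construction, and the 2 results are not separate evidence.

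**Figure D1:**
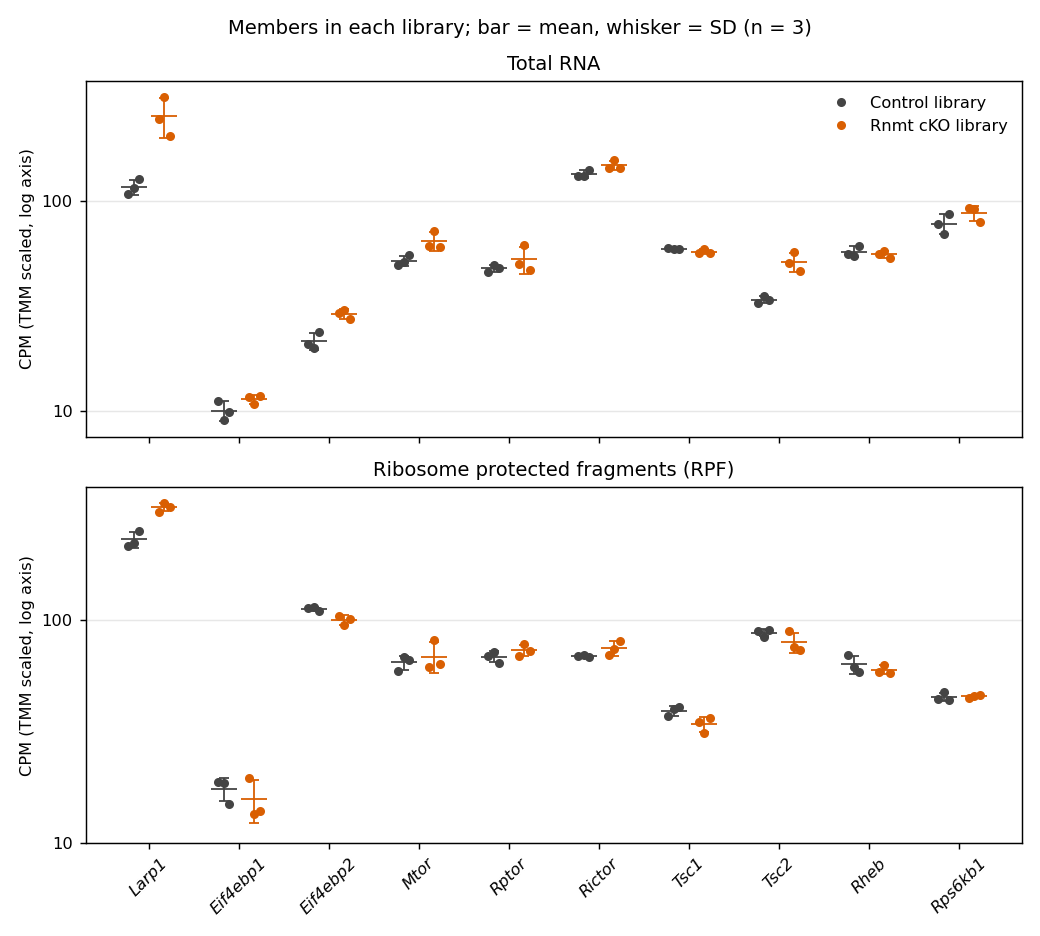
Points give the CPM of each of the 10 members in each library (log axis), in total RNA above and RPF below, with controls in grey and *Rnmt* cKO in orange, the bar at the mean and whiskers of 1 SD (n = 3). In total RNA the *Rnmt* cKO libraries stood above all controls for Larp1, Eif4ebp2, Mtor, Rictor and Tsc2, and in RPF for Larp1.

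The 4E-BP genes encode the repressors that compete with the scaffold eIF4G for eIF4E. Eif4ebp2 (chr10:61428491-61452661, - strand) was 20.8, 20.0 and 23.7 CPM in control total RNA and 29.3, 30.3 and 27.4 CPM in *Rnmt* cKO total RNA. Its RPF was 112.9, 113.8 and 109.1 CPM in controls and 103.9, 94.7 and 101.4 CPM in *Rnmt* cKO samples. The *Rnmt* cKO libraries were thus all above the controls in total RNA and all below them in RPF. Relative to other genes, total RNA of Eif4ebp2 rose 1.35-fold (log2 fold change 0.43, standard error 0.09, adjusted p = 0.0043 in edgeR's quasi-likelihood test). That rise would be cancelled per cell if *Rnmt* cKO cells held 0.741 times the mRNA of controls. RPF of Eif4ebp2 did not pass the threshold (log2 fold change -0.16, 95% interval -0.31 to -0.02 before adjustment, adjusted p = 0.088 by the same test).

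The log2 TE of Eif4ebp2 was 2.432, 2.505 and 2.196 in controls and 1.818, 1.638 and 1.888 in *Rnmt* cKO samples. No *Rnmt* cKO value reached the lowest control. The TE of Eif4ebp2 fell by 0.60 on the log2 scale (standard error 0.11, adjusted p = 0.0031 from edgeR), a call that held with each library left out (adjusted p up to 0.030). From *Rnmt* cKO replicate 3 alone the log2 values were 0.38 in total RNA (adjusted p = 0.052) and -0.52 in TE (adjusted p = 0.13), with neither past the threshold. Eif4ebp1 (chr8:27260329-27276674, + strand), with 57 to 200 reads per RPF library the least covered member, did not pass the threshold in any comparison. Its log2 fold change was 0.18 in total RNA (95% interval -0.07 to 0.43), -0.15 in RPF (-0.55 to 0.26) and -0.32 in TE (-0.78 to 0.14), so that changes of the size seen for Eif4ebp2 lie inside these intervals. Single libraries moved these values, in total RNA between 0.11 without control replicate 2 and 0.26 without control replicate 1, in RPF between -0.34 without *Rnmt* cKO replicate 1 and -0.031 without replicate 2, and in TE between -0.52 without *Rnmt* cKO replicate 1 and -0.21 without control replicate 2. The remaining 4E-BP gene, Eif4ebp3, had 10 reads over the 6 total RNA libraries and 0 in RPF and was not tested.

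Of Tsc1 and Tsc2, whose proteins together keep Rheb in its inactive form, Tsc2 changed in total RNA and TE. Tsc2 (chr17:24595816-24632630, - strand) overlaps exons of Pkd1 on the other strand, and the counts used separate the strands. Total RNA of Tsc2 was 32.8, 35.2 and 33.9 CPM in controls and 50.9, 57.1 and 46.2 CPM in *Rnmt* cKO samples, whereas its RPF was 88.8, 83.9 and 90.1 CPM in controls and 88.8, 75.9 and 73.1 CPM in *Rnmt* cKO samples. The genotypes were apart in total RNA and overlapped in RPF. Total RNA of Tsc2 rose 1.51-fold (log2 fold change 0.60, standard error 0.09, adjusted p = 8.7e-04 in edgeR's quasi-likelihood test), and RPF had a log2 fold change of -0.14 (95% interval -0.34 to 0.06). Log2 TE was 1.43, 1.25 and 1.41 in controls and 0.80, 0.41 and 0.67 in *Rnmt* cKO samples, again without overlap. The TE of Tsc2 fell by 0.74 on the log2 scale (standard error 0.13, adjusted p = 0.0025 from edgeR). Both calls held with each library left out and from replicate 3 alone (log2 values of 0.47 and -0.73, adjusted p = 0.0068 and 0.020).

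Tsc1 (chr2:28641228-28691167, + strand), the partner that stabilises TSC2, and the GTPase Rheb (chr5:24802823-24842624, - strand), which activates mTORC1, did not pass the threshold. Total RNA of Tsc1 ranged from 59.0 to 60.0 CPM in controls and from 56.4 to 59.3 CPM in *Rnmt* cKO samples (log2 fold change -0.05, 95% interval -0.18 to 0.08). The 3 RPF values of Tsc1 in *Rnmt* cKO samples (35.0, 31.1 and 36.3 CPM) were below all 3 controls (37.0, 39.7 and 40.8 CPM), with a log2 fold change of -0.20 (95% interval -0.42 to 0.02, adjusted p = 0.14 from edgeR). Rheb had log2 fold changes of -0.04 in total RNA (95% interval -0.20 to 0.12), -0.08 in RPF (-0.28 to 0.12) and -0.04 in TE (-0.28 to 0.20). Larger changes in Tsc1 total RNA and in Rheb, on the scale of that of Tsc2 total RNA, lay outside the intervals.

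**Figure D2:**
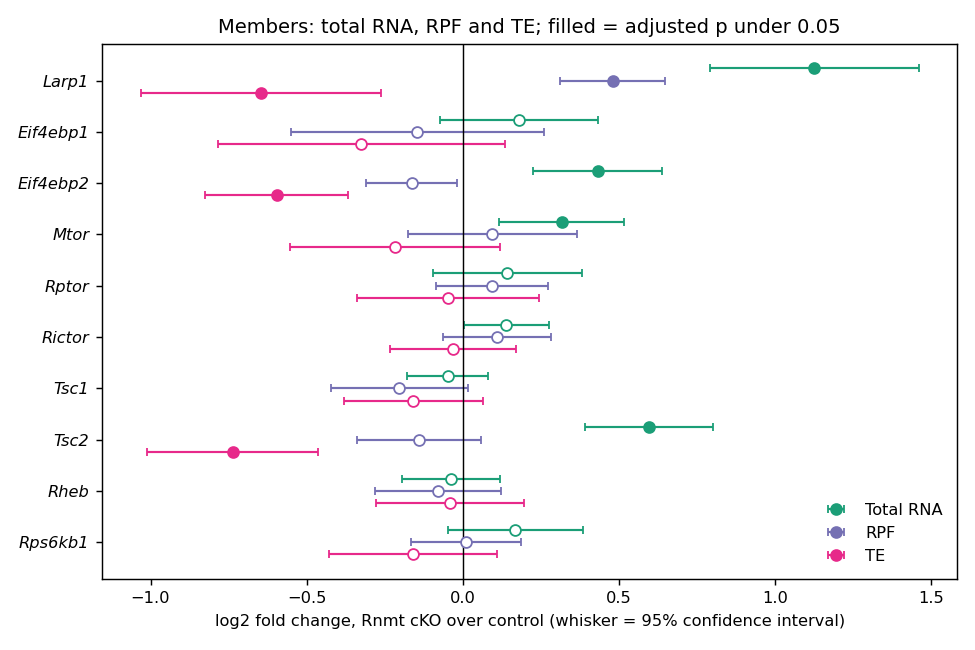
Log2 changes in *Rnmt* cKO relative to control with 95% confidence intervals for each member in total RNA (green), RPF (purple) and TE (pink), filled where the adjusted p was under 0.05. Larp1, Eif4ebp2 and Tsc2 have filled points to the right of 0 in total RNA and to the left in TE, and Larp1 has the filled point in RPF.

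Mtor (chr4:148448611-148557683, + strand), the kinase itself, rose slightly relative to other genes in total RNA. It was 49.4, 51.2 and 55.1 CPM in controls and 61.1, 72.4 and 60.5 CPM in *Rnmt* cKO samples, with no overlap. The log2 fold change of Mtor was 0.32 (standard error 0.09, adjusted p = 0.016 in edgeR's quasi-likelihood test), and the call was lost without control replicate 1 (0.28, adjusted p = 0.069), without control replicate 2 (0.30, adjusted p = 0.055) and from *Rnmt* cKO replicate 3 alone (0.25, adjusted p = 0.067). RPF of Mtor was 59.1, 68.1 and 66.2 CPM in controls and 61.3, 81.1 and 63.1 CPM in *Rnmt* cKO samples, which overlapped (log2 fold change 0.10, 95% interval -0.18 to 0.37). Its log2 TE of 0.00, 0.16 and 0.06 in *Rnmt* cKO samples lay below the 0.26, 0.41 and 0.26 of controls, yet the fitted change of -0.22 did not pass the threshold (95% interval -0.55 to 0.12, adjusted p = 0.42).

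Rptor (chr11:119602905-119899576, + strand) encodes the subunit that defines mTORC1 and recruits its substrates, Rictor (chr15:6708379-6800401, + strand) that of mTORC2, which phosphorylates Akt, and Rps6kb1 (chr11:86498871-86544805, - strand) the S6 kinase downstream of mTORC1. None of the 3 passed the threshold in total RNA, RPF or TE. Rictor came closest, with 131.5, 131.4 and 141.0 CPM in control total RNA and 144.7, 156.7 and 143.5 CPM in *Rnmt* cKO total RNA, which did not overlap (log2 fold change 0.14, 95% interval 0.00 to 0.28 before adjustment, adjusted p = 0.078 from edgeR). The log2 fold change in total RNA was 0.14 for Rptor (95% interval -0.10 to 0.38) and 0.17 for Rps6kb1 (95% interval -0.05 to 0.39). Single libraries moved these values, Rptor between 0.035 without *Rnmt* cKO replicate 2 and 0.23 without replicate 3, and Rps6kb1 between 0.090 when control replicate 2 was left out and 0.25 when *Rnmt* cKO replicate 3 was. From *Rnmt* cKO replicate 3 alone they were 0.0033 and 0.057. In RPF the 3 genes lay between 0.01 and 0.11, and in TE between -0.16 and -0.03. Exons of Rptor overlap those of Rptoros, and exons of Rps6kb1 those of Rnft1, each on the other strand.

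Counted together, 4 of the 10 members rose in total RNA and none fell, where 26.3% of the 11519 genes tested rose and 28.0% fell. In 5 of 10 the *Rnmt* cKO libraries were all above the controls, against 30.0% of all genes, and in none were they all below, against 32.3%. The median log2 fold change of the members was 0.18, and that of all genes 0.00. In RPF 1 of 10 rose (14.1% of 11428 genes) and none fell (15.7%), with a median of -0.03 against 0.01, 1 member above all controls (22.2% of genes) and 2 below (24.3%). In TE 3 of 10 fell (6.57% of 10668 genes) and none rose (3.24%), and 4 were below all controls (14.8%) and none above (16.7%). The log2 change in TE was negative in all 10 in the main fit, with a median of -0.19 against 0.04. The share of all genes with a negative change was not counted. That sign turned for Rptor and Rictor from *Rnmt* cKO replicate 3 alone (0.083 and 0.11). It also turned for Rheb without control replicate 1 (0.049) and for Rptor without *Rnmt* cKO replicate 2 (0.014). For 3 members, Larp1, Eif4ebp2 and Tsc2, total RNA rose and TE fell, as it did for 613 genes or 5.75% of those tested for both. Those 613 were among the 701 genes lowered in TE, so a rise in total RNA was usual for genes with that call. The total RNA count was 3 without control replicate 1 or 2, and the TE count was 2 when any of the 5 libraries named for Larp1 was left out. From *Rnmt* cKO replicate 3 alone, 2 of 10 members rose in total RNA (Larp1 and Tsc2, against 19.7% of 11119 genes), 1 rose in RPF (Larp1, against 4.36% of 10951) and 1 fell in TE (Tsc2, against 2.84% of 10337). In the opposite directions the shares of all genes were 20.8% lowered in total RNA, 4.75% lowered in RPF and 0.784% raised in TE, with no member among them. At an unadjusted p under 0.05, edgeR gave 0 members lowered in total RNA, 1 in RPF (Eif4ebp2) and 0 raised in TE, and DESeq2 after adjustment gave 0 in each. All 10 members passed the filter on low counts in both kinds of library. As they were chosen with earlier results of these data known, the shares of all genes describe them and are not a blind comparison.

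**Figure D3:**
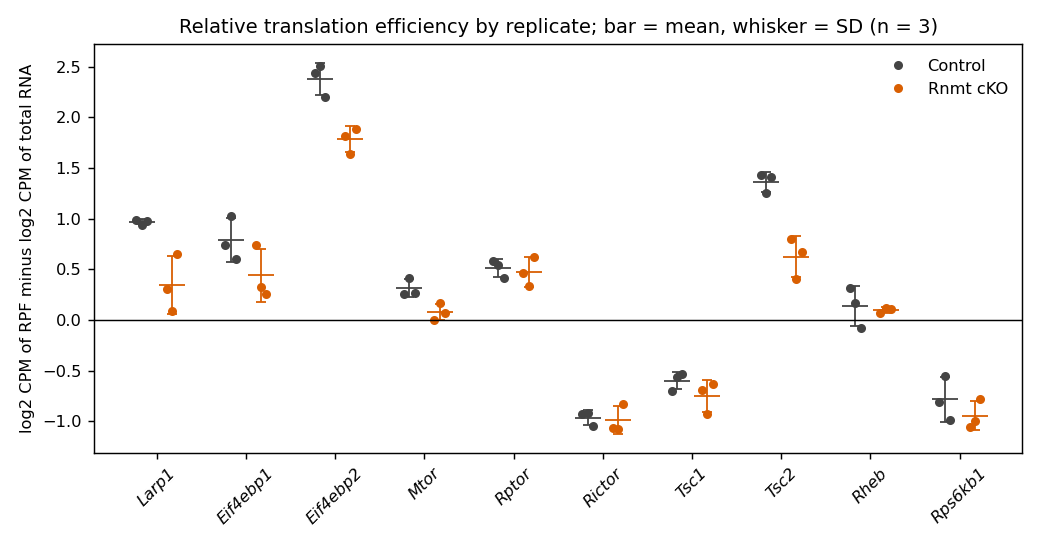
Log2 TE of each member (log2 CPM of RPF minus log2 CPM of total RNA for libraries of the same number), with controls in grey and *Rnmt* cKO in orange, the bar at the mean and whiskers of 1 SD (n = 3). Larp1, Eif4ebp2, Mtor and Tsc2 have all *Rnmt* cKO points below all control points, and the control means run from Rictor (-0.96) to Eif4ebp2 (2.38).

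Levels between genes can be compared only per length. Per kilobase of exon, scaled to a fixed total over protein-coding genes, Rheb was the most abundant member in control total RNA (115 ± 8.79, SD, n = 3), followed by Larp1 (63.1 ± 6.07), Rictor (51.7 ± 2.94) and Rps6kb1 (34.9 ± 4.26), and Eif4ebp2 the least (13.3 ± 1.42). Of the 9 neighbouring pairs in that order, Tsc2 (19.2 ± 0.677) and Eif4ebp1 (18.0 ± 1.91) overlapped between libraries and the others did not. In *Rnmt* cKO total RNA Larp1 came first (143 ± 32.7, SD, n = 3), and its libraries overlapped those of Rheb (116 ± 6.05). The levels of Tsc2, Rptor, Tsc1 and Mtor ran together there, at 30.0, 29.6, 27.4 and 27.2, each overlapping the next.

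On RPF per kilobase of coding sequence the order was another. Eif4ebp2 came first in controls (367 ± 9.03, SD, n = 3), ahead of Rheb (135 ± 11.6), Larp1 (83.9 ± 7.22) and Eif4ebp1 (58.7 ± 7.07), and Mtor last (9.87 ± 0.793). Reads were counted over whole exons, and Eif4ebp2 has 360 coding bases in 5784 bases of exon, so that fragments outside the coding sequence would raise its value most. Divided by exon length instead, RPF of Eif4ebp2 came next (51.6 ± 1.14, SD, n = 3), after Rheb (94.4 ± 8.44) and Larp1 (92.3 ± 7.91).

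**Figure D4:**
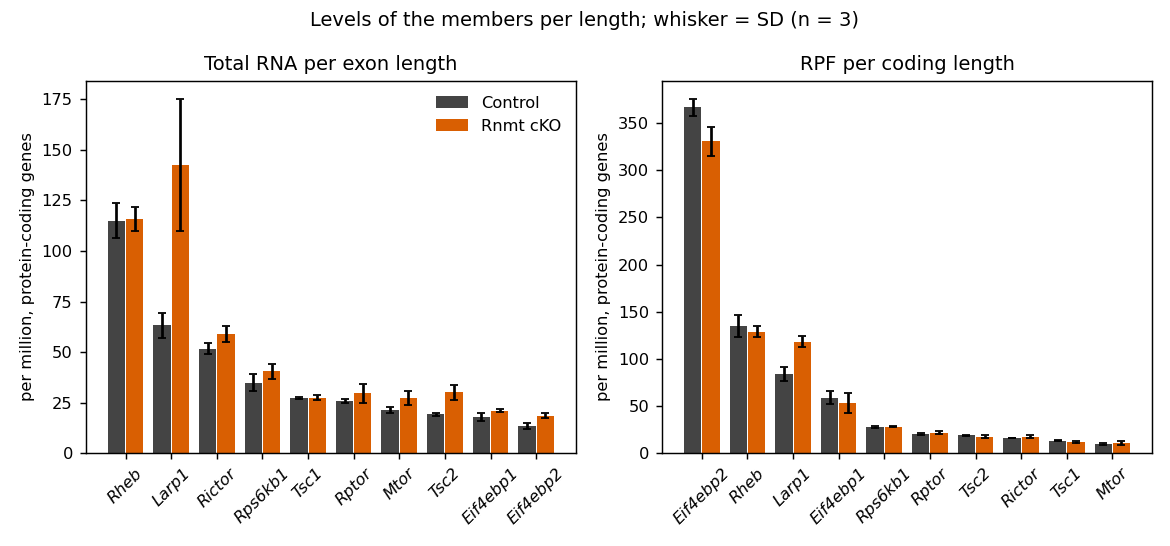
Bars give the mean level of each member per length, as counts per kilobase scaled to a common total over protein-coding genes, in total RNA (per kilobase of exon, left) and RPF (per kilobase of coding sequence, right), for controls (grey) and *Rnmt* cKO (orange), with whiskers of 1 SD (n = 3). Larp1 passes Rheb in *Rnmt* cKO total RNA (143 and 116), and Eif4ebp2 is last in total RNA and first in RPF.

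The genes with the pattern most like that of Larp1 over the 12 libraries were Pofut1, Nfat5 and Itgb1. They were found by Euclidean distance of log2 CPM, centred within total RNA and within RPF, over 6670 genes, and lay at 0.355, 0.361 and 0.371, against a median of 1.57 for all genes. Their log2 fold changes were 1.18, 1.04 and 1.09 in total RNA and 0.38, 0.59 and 0.48 in RPF, beside 1.13 and 0.48 for Larp1. The distance includes the difference between genotypes, so similar fold changes follow from how the genes were found. Pofut1 adds fucose to proteins such as Notch, Nfat5 is a transcription factor of the response to hypertonic stress, and Itgb1 is the integrin beta chain of several matrix receptors. The genes nearest to Mtor were Urb1, Mdn1 and Nup62, at 0.263, 0.264 and 0.267 (median 0.789). Urb1 and Mdn1 are ribosome biogenesis factors and Nup62 a protein of the nuclear pore. Eif4ebp1 was below the level needed to be compared.

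Another 107 genes of the pathway, in 10 lists by role, set the members beside their partners. Of the 98 tested in total RNA, 23 rose and 23 fell, with a median log2 fold change of 0.00. In RPF 12 of 99 rose and 16 fell, and in TE 2 of 98 rose and 6 fell. These shares were close to those of all genes given above, and the lists held changes in either direction. From *Rnmt* cKO replicate 3 alone, 15 of the 23 rises and 19 of the 23 falls in total RNA kept their call, as did 3 of 12 rises and 4 of 16 falls in RPF, and 3 of the 8 calls in TE (Eif4b, Mknk2 and Larp4). Among the other subunits of the mTOR complexes, Mlst8, which binds the kinase domain in both complexes, rose in total RNA (log2 fold change 0.68) and fell in TE (-0.63). The call in TE was lost without control replicates 1 or 3 or *Rnmt* cKO replicate 1 (-0.74 to -0.51 with each library left out). RPF of Mlst8 did not pass the threshold (0.05). Mapkap1, a subunit of mTORC2, fell in total RNA (-0.62), as did Tti1 (-0.65), which helps assemble kinases of this family. Prr5l, an mTORC2 partner picked out after its values were seen, lay near the filter of 1 CPM in controls. Its means were 1.69 CPM in control and 6.06 CPM in *Rnmt* cKO total RNA, and 1.69 and 3.38 CPM in RPF. Prr5l rose by 1.85 in total RNA and by 1.02 in RPF. The call in RPF was lost without control replicates 1 or 3 or *Rnmt* cKO replicates 1 or 2 (0.89 to 1.19 with each library left out).

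Upstream of TSC, the inhibitors moved in either direction or did not pass the threshold. Sesn2 and Ddit4, which restrain mTORC1 under stress, rose in total RNA (log2 fold changes 1.44 and 1.25) and in RPF (1.66 and 0.96), whereas Sesn1 fell in both (-1.09 and -0.98). Tbc1d7, the further subunit of the TSC complex, had means of 7.92 CPM in control and 10.0 CPM in *Rnmt* cKO total RNA, and of 12.7 and 23.2 CPM in RPF. It rose in both (log2 fold changes 0.34 and 0.88, adjusted p = 0.035 and 0.0060 from edgeR). The call in total RNA was lost without control replicates 1, 2 or 3 or *Rnmt* cKO replicates 1 or 3 (0.27 to 0.40 with each library left out), and that in RPF was lost from *Rnmt* cKO replicate 3 alone (0.47, adjusted p = 0.22). Sesn3, with 328 CPM in controls the most abundant sestrin by CPM, had log2 fold changes of -0.10 and 0.01 (adjusted p = 0.31 and 0.91 from edgeR). Over that list 3 of 6 genes tested rose and 1 fell in total RNA, and all 6 had TE changes between -0.29 and 0.55. In the PI3K and Akt list 3 of 14 rose and 2 fell. Pik3cd, the leukocyte catalytic subunit of PI3K, rose (0.54) and Pik3ca fell (-0.49), while Phlpp1, a phosphatase of Akt, rose (0.46, and 0.26 with adjusted p = 0.10 in edgeR from *Rnmt* cKO replicate 3 alone).

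Amino acid sensing, through which the Rag GTPases bring mTORC1 to the lysosome, showed 2 of 13 genes up and 5 down for the Rag and Ragulator list. Rragd and Rragc rose in total RNA (0.84 and 0.72), Rragc fell in TE (-0.78), and Slc38a9, the lysosomal arginine sensor, fell in total RNA (-0.68). Of 13 GATOR and KICSTOR genes 2 rose and 2 fell. Seh1l, a member of GATOR2 and of the nuclear pore, rose in total RNA (0.52) and fell in TE (-0.44), and Mios and Kptn fell in total RNA (-0.38 and -0.66). RPF of Rragc and Seh1l did not pass the threshold (-0.05 and 0.08). As for Larp1, TE shares the total RNA libraries, so these falls in TE are not separate evidence from the rises in total RNA. Of 8 AMPK and Lkb1 genes, which restrain mTORC1 when energy is low, Strada (-0.93) and Prkag1 (-0.58) were among 3 that fell, and Prkab1 (0.54) was the 1 that rose.

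Downstream, the S6 kinase substrates were led by Eif4b, a cofactor of the helicase eIF4A. Eif4b fell in total RNA (log2 fold change -0.95, adjusted p = 1.8e-05) and rose in TE (1.00, adjusted p = 9.7e-05, both from edgeR), while Poldip3, a partner of S6 kinase on spliced mRNA, rose in total RNA (0.39) and fell in TE (-0.31, a call lost when any control was left out, with values from -0.35 to -0.28). The other 6 genes of that list did not pass the threshold in total RNA. Of 11 genes around eIF4E and eIF4F, 3 rose and 3 fell in total RNA. Eif4a2, a helicase of the initiation complex, fell (-1.17) with a rise in TE (0.55), Eif4e3 (-0.99) and the eIF4E kinase gene Mknk1 (-0.54) fell, and the related kinase gene Mknk2 fell in TE (-0.62).

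Among the La-related proteins and partners at TOP mRNAs, 4 of 10 rose and 2 fell. Larp4, which binds poly(A) and stabilises mRNA, rose by 1.52 on the log2 scale in total RNA and fell by 1.28 in TE (adjusted p = 3.3e-05 and 1.8e-04 from edgeR), and its RPF did not pass the threshold (0.24, adjusted p = 0.080). Larp1b, the paralog of Larp1, rose slightly in total RNA (0.25, adjusted p = 0.016 from edgeR, a call lost without control replicates 2 or 3 at 0.23 to 0.29), and Larp4b and Larp7 did not pass the threshold there (0.00 and -0.05). Cnbp, a zinc finger protein that binds TOP mRNAs, rose (0.64) and Tia1, which represses them in stress, fell (-0.92). Of 8 autophagy and lysosome targets of mTORC1 tested, 2 rose and 2 fell in total RNA. These included Ulk1 (0.63, and 0.42 to 0.77 with each library left out, the call being lost without control replicate 1), the kinase that starts autophagy, its partner Atg13 (-0.45), and Tfeb (-0.99), the transcription factor of lysosomal genes.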

How the data were processed

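Total RNA and RPF libraries of 3 control and 3 *Rnmt* cKO samples were grouped by their labels. The authors took the second read of each pair, as the first had failed, trimmed it with Cutadapt, removed rRNA and tRNA reads with Bowtie, aligned to mm10 with STAR 2.5.2b and GENCODE vM12, and deposited raw counts per gene. A second deposited table holds normalized signal values per library, which served only to fix the strand, and the authors' own fold changes and p-values, which were not used.

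Members and lists were chosen with earlier results of these data known. Genes that exceeded 1 CPM in 3 or more of 6 libraries were compared with edgeR 4.0.16 (TMM, quasi-likelihood test, R 4.3.3) over all genes, with Benjamini-Hochberg adjustment and a threshold of 0.05. TE was the genotype by library kind interaction in 12 libraries, for genes that passed in both. CPM values used a prior count of 2 where logged. An exact permutation test of 3 against 3 cannot give less than 0.1. Positions are of GENCODE vM21 (GRCm38), which held 49326 of 49585 identifiers. Named pathway genes were up to 3 per list with the lowest adjusted p in total RNA and in TE. Any others (Prr5l, Tbc1d7, Sesn3, Larp1b, Larp4b, Larp7) were named after their values were seen. Eif4ebp1 had no start in the RefSeq table. Multimapping reads, 22.9 to 31.0% of RPF and 24.3 to 30.1% of total RNA reads, were not counted, and intervals do not account for PCR duplicates. Alternatives were library size scaling, DESeq2 1.42.0, the edgeR exact test, other filters, both strands, each library left out and replicate blocks, and, chosen after seeing the data, *Rnmt* cKO replicate 3 alone.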

Additional observations from a re-analysis of the deposited data

How the results depend on the processing

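Larp1 and Tsc2 kept their calls in total RNA, Larp1 in RPF and Tsc2 in TE under all 14 alternatives, with log2 fold changes of 0.84 to 1.27, 0.47 to 0.68, 0.42 to 0.55 and -0.85 to -0.63. With *Rnmt* cKO replicate 3 alone, an alternative chosen after seeing the data, 2 members rose in total RNA and 1 fell in TE, and over all genes 477 rose and 520 fell in RPF and 81 rose and 294 fell in TE, with fewer samples in the fit. Mtor turned to -0.032 in RPF and Rptor and Rictor to 0.083 and 0.11 in TE. Leaving out each library gave 125 to 367 genes raised and 415 to 814 lowered in TE, against 346 and 701, with 229 raised without control replicate 3. Without a filter 214 genes were raised in TE, and Rps6kb1 turned to -0.025 in RPF. With a library left out, small changes crossed 0, for Rheb in total RNA (-0.073 to 0.0098, turned without control replicate 3, and at 0.0018 without *Rnmt* cKO replicate 3) and in TE (-0.15 to 0.049, turned without control replicate 1), Rps6kb1 in RPF (-0.019 to 0.040, turned without control replicates 1 or 3), and, without *Rnmt* cKO replicate 2, Mtor in RPF (-0.047 to 0.18) and Rptor in TE (-0.12 to 0.014). Other members below the threshold moved by over 1.5 times, in RPF Tsc2 (-0.23 to -0.087), Rheb (-0.14 to -0.012), Rictor (0.062 to 0.17), Rptor (0.047 to 0.14) and Tsc1 (-0.25 to -0.13), in TE Rps6kb1 (-0.26 to -0.046), Rictor (-0.11 to -0.0031) and Tsc1 (-0.21 to -0.078), and in total RNA Tsc1 (-0.057 to -0.023). The ratio of the highest to the lowest member in control RPF was 37.2 per coding length and 6.99 per exon length. For these values the cause was not tested. Samples of different genotype did not pair by number (correlations of -0.56 to -0.22 in total RNA and -0.04 to 0.25 in RPF). Between unlike numbers the correlations ran from -0.31 to 0.49 in total RNA and from -0.24 to 0.17 in RPF. The highest was that of control replicate 1 with *Rnmt* cKO replicate 3 in total RNA. The replicate block left 4 members raised in total RNA, 1 in RPF and 3 lowered in TE, with 2455 genes raised and 2751 lowered in total RNA. Total RNA and RPF libraries of one number correlated by 0.061 to 0.35, and whether they came from the same culture is not given in the labels. Each total RNA library correlated best with the RPF library of its own number, a hint from the data. For *Rnmt* cKO replicate 1 this was nearly a tie (0.061, against 0.056 with RPF of *Rnmt* cKO replicate 3). A block for the shared number within each genotype gave 426 genes raised and 777 lowered in TE. Other alternatives moved the median of all genes by less than 0.1. Eif4ebp1 had the fewest reads, 57 to 200 per RPF library.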
